A study of Mus musculus with 6 samples.

Results

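The regions described here are the accessible DNA at and around 9 genes that mark and specify fibroblasts: the receptor genes Pdgfra and Pdgfrb, the surface antigen gene Thy1, and the transcription factor genes Twist1, Twist2, Prrx1, Tcf21, Meis1 and Meis2. The assay was ATAC-seq, where a transposase places sequencing adapters in open chromatin. The members were every region that the deposited table assigned to one of the 9 symbols, plus every region assigned to no gene whose centre lay within 50 kb of such a region. This gave 37 of 63430 regions, of which 13 were assigned to 7 of the genes and 24 to no gene. Tcf21 and Meis1 had 0 assigned regions.

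All cells were NIH/3T3, a mouse embryonic fibroblast line, and all carried a knock-in of the RNA-cutting nuclease Cas13d, controls included. The control group (GFP guide, 3 libraries) was transfected with a guide RNA against GFP, and the other group (Actg1 guide, 3 libraries) with a guide RNA against the transcript of Actg1, which encodes the gamma-actin of the cytoplasm. The stated question was what role mRNA decay plays in transcriptional adaptation, in which related genes respond to the loss of a transcript. Each library came from 25000 cells. The replicates are described as biological, but not whether they were separate cultures or whether the Cas13d line is a single clone, so the p-values measure only the spread between these libraries, which may be technical. Estimated reads in regions ran from 5674714 to 9525995 per library, and 1 read was worth 0.807 to 1.35 units of the deposited signal. The first and second GFP guide replicates agreed within sampling noise, differing by less than it (chi-square per region 0.992, p = 0.911) and were averaged and counted as 1 sample. The other pairs within a group gave 1.04 to 1.12, so the spread within groups lay near counting error. The SD of the GFP guide is therefore between 2 values and leaves out the spread between those libraries. Of 61327 regions tested over the genome, 41.3% were called higher or lower with the Actg1 guide (limma, Benjamini-Hochberg adjusted p under 0.05), and every count of calls below is to be read against that share. All Actg1 guide libraries lay above all GFP guide libraries in 15482 of the 61327 regions and below them in 15654. Groups that were apart, as stated below for single regions, were thus common over the genome. The calls comprised 12642 rises and 12681 falls. Leaving out GFP guide replicate 3 leaves the GFP guide as 1 sample, with no spread of its own. A call lost in that fit cannot show whether it rested on the values of that library. This holds for every result below given without GFP guide replicate 3.

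Pdgfra and Pdgfrb encode the receptor tyrosine kinases for platelet-derived growth factors, which drive the growth and movement of mesenchymal cells. Thy1 is a small surface glycoprotein held by a lipid anchor and used to sort fibroblasts. Twist1 and Twist2 are closely related basic helix-loop-helix factors of embryonic mesenchyme, Tcf21 belongs to the same class, Prrx1 is a paired-related homeodomain factor of limb and facial mesenchyme, and Meis1 and Meis2 are homeodomain factors that bind DNA together with other homeodomain proteins. In differentiated cells such genes often have an accessible promoter and further accessible elements within and around the gene.

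The label of the cells was checked against promoter regions, meaning regions centred within 1 kb of a transcription start site (TSS). Of 17 fibroblast markers, 11 had such a region, among them Col1a1, Col1a2, Col3a1, Fn1, Vim, Pdgfrb, Prrx1, Twist1, Twist2 and Meis2, with a median signal of 336. Of their 14 regions, 1 was called higher and 5 lower (limma), the promoters of Pdgfrb and Twist1 among the lower, where 32.7% of all tested promoter regions were called. Their summed signal was 4282 to 4362 in the GFP guide libraries and 3890 to 4031 in the Actg1 guide libraries, lower and with no overlap. Pdgfra, Thy1, Tcf21, Meis1, Dcn and Lum had none among the regions used here. Of 52 markers of epithelium, endothelium, blood, pericytes and smooth muscle, skeletal muscle, neural and pluripotent cells, 10 had a promoter region, and neither the 8 blood nor the 4 pluripotency markers had one. The highest signal was 595 in skeletal muscle, 205 in pericyte and smooth muscle, 196 in neural, 110 in epithelial and 57.8 in endothelial markers, against 938 in fibroblast markers. The medians, from 1 to 3 genes each, were 324 in skeletal muscle, 115 in neural and 107 in pericyte and smooth muscle markers. They were 69.0 in epithelial and 57.8 in endothelial markers, against 336 in fibroblast markers. Of those 10 regions 0 were called (limma), against the same 32.7%, and their summed signal was 1379 to 1404 in the GFP guide libraries and 1355 to 1500 in the Actg1 guide libraries, which overlapped. Whether fibroblast and other markers differed in their change was not tested, nor was the part of signal in the calls.

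The DNA just upstream of a start of 4 of the genes is shown because the genes differ in what the regions cover. For Twist1 and Twist2 all 250 bases lay inside a region, for Prrx1 76 of 190 bases did, and for Pdgfra 0 of 250 did. The sequences are from RefSeq (GRCm38.p6, which matched 7 of the 9 genes), are written 5′ to 3′ on the strand of the gene and end just before the start in the RefSeq promoter table. The Prrx1 sequence is cut shorter, at the start given in the deposited table, which lies upstream of that one. RefSeq's full outline of Pdgfra begins at chr5:75151322 and that of Prrx1, on the minus strand, at chr1:163315145, so both of these sequences precede an inner start and lie inside the gene as RefSeq draws it. Capitals mark matches, on either strand, to the motifs searched: CANNTG (E-box), TGACAG (MEIS core), TGAGTCA (AP-1), GGAATG (TEAD), GGGCGG (GC box), CCAAT and TATAAA.
Twist1 chr12:33957421-33957670 (+): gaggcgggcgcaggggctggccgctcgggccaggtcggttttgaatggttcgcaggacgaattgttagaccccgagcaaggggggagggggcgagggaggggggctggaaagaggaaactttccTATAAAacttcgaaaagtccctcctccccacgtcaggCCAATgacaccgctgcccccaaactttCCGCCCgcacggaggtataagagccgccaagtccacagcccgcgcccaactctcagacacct
Twist2 chr1:91801211-91801460 (+): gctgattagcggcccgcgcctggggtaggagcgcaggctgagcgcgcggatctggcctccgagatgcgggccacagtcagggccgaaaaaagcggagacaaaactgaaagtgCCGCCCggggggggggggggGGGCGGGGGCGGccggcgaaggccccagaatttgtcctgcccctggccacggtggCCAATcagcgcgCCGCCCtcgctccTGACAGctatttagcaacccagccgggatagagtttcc
Prrx1 chr1:163313711-163313900 (-): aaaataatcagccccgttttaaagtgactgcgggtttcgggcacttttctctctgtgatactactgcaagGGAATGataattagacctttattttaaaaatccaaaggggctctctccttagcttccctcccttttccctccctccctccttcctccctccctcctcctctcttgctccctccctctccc
Pdgfra chr5:75152001-75152250 (+): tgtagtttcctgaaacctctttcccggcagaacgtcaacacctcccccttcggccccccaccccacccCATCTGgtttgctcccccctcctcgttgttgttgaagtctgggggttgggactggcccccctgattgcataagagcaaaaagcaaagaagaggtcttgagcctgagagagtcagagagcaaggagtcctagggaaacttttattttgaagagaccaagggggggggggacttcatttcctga

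The Twist1 and Twist2 sequences were rich in CG pairs, with 18 and 23, where the median of 32851 RefSeq promoters over the same 250 bases was 6. Pdgfra had 4, and Prrx1 had 3 where the median for 190 bases was 4. Twist2 held 4 GC boxes and Twist1 held 1, a motif found in 32.7% of all promoters at this length. CCAAT occurred in both (33.8% of all promoters), TATAAA in Twist1 alone of the 4 (12.4%) and TGACAG in Twist2 alone of the 4 (15.9%). The E-box, the class of motif that Twist proteins bind, occurred in 66.2% of all promoters and in the Pdgfra sequence, but had no match in the Twist1, Twist2 or Prrx1 sequences. GGAATG had 1 match in the Prrx1 sequence (10.2% of all promoters at 190 bases). A match describes the letters of the window only.

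Of the 13 assigned regions, 1 was called higher, 3 lower and 9 neither, or 30.8% called, where 36.3% of all tested regions assigned to a gene were called. Changes are given as the log2 ratio of the Actg1 guide to the GFP guide, called the log2 change, on a scale of log2(signal + 1) that understates the change of weak regions. Their median log2 change was -0.03, against -0.01 for all tested regions. The called regions were the Prrx1 region inside the gene (higher), both Pdgfrb regions (lower) and the Twist1 promoter (lower). No assigned region of Pdgfra, Thy1, Twist2 or Meis2 was called. 

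**Figure D1:**
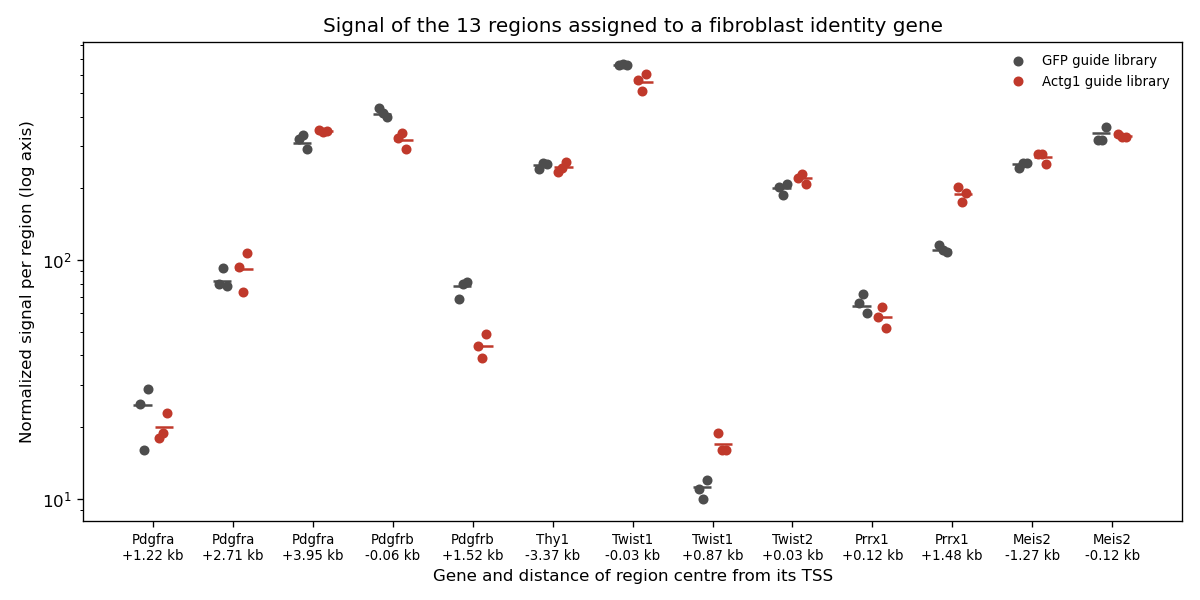
Normalized signal (log axis) of the 13 assigned regions in each library, ordered by gene and by distance of the region centre from the TSS in kb; dots are libraries and lines are group means, with GFP guide replicates 1 and 2 averaged first. Both Pdgfrb regions sit lower and the Prrx1 region at +1.48 kb sits higher in all 3 Actg1 guide libraries than in any GFP guide library.

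Levels were compared between genes per 100 bp of region. For the assigned region of highest mean signal at each gene, in the GFP guide, the values were 48.2 ± 0.207 (SD, n = 2) units of signal per 100 bp at Twist1, 47.6 ± 0.47 at Thy1 and 46.2 ± 1.95 at Pdgfrb. Thy1 and Pdgfrb differed by less than their spread. Meis2 followed at 39.7 ± 3.46 per 100 bp and Pdgfra at 30.9 ± 2.42. The lowest were Twist2 at 15.1 ± 0.715 and Prrx1 at 12.9 ± 0.451. In the Actg1 guide the levels were 46.6 ± 2.12 (SD, n = 3) per 100 bp at Thy1, 41.1 ± 3.21 at Twist1, 38.7 ± 0.507 at Meis2, 36.0 ± 2.84 at Pdgfrb and 34.5 ± 0.413 at Pdgfra, with Prrx1 at 22.0 ± 1.57 and Twist2 at 16.5 ± 0.868. There Twist1 and Meis2, Meis2 and Pdgfrb, and Pdgfrb and Pdgfra lay within the spread of the wider member of each pair. Prrx1 was thus below Twist2 with the GFP guide and above it with the Actg1 guide. The difference between genes in these levels was not tested.

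Pdgfrb, the receptor for the B and D chains of platelet-derived growth factor, had lower accessibility at its start and in the first part of the gene. Its promoter region (chr18:61044646-61045535, centre 59 bp from the TSS) had a signal of 433, 414 and 399 in the GFP guide libraries and of 325, 343 and 293 in the Actg1 guide libraries. The groups did not overlap, and every Actg1 guide library was low. The means were 411 ± 17.3 (SD, n = 2) and 320 ± 25.3 (SD, n = 3), a log2 change of -0.36 (SE 0.0753, limma adjusted p = 1.37e-04). A second, shorter region inside the gene (chr18:61046552-61046780, 1.52 kb after the TSS) fell from 69, 80 and 81 to 44, 39 and 49. Its log2 change was -0.81 (SE 0.172, limma adjusted p = 1.71e-04), and it was called in all 15 alternative analyses. The promoter was called in 14 of 15 and missed the threshold without the mean-variance trend (limma adjusted p = 0.065).

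Around Pdgfrb 5 regions assigned to no gene were selected, of which 1 was called higher and 2 lower, where 43.9% of all tested regions assigned to no gene were called. The largest change was inside the gene, 13.4 kb after the TSS (chr18:61058301-61058862), where the signal was 141, 178 and 142 with the GFP guide and 46, 66 and 74 with the Actg1 guide. No library of one group came near the other, and the log2 change was -1.29 (SE 0.153, limma adjusted p = 4.62e-09), called in all 15 alternatives. This was also the region of highest mean signal among the 5. Further into the gene, 26.9 kb after the TSS (chr18:61071887-61072258), the direction was the opposite: 42, 37 and 52 became 68, 61 and 63, a log2 change of 0.49 (SE 0.173, limma adjusted p = 0.0208). The rise missed the threshold without Actg1 guide replicate 1 (limma adjusted p = 0.0862) and without the mean-variance trend (0.0606). Upstream, the region in the neighbouring gene Slc6a7 (chr18:61006402-61006551, 38.7 kb before the TSS) fell from 35, 36 and 47 to 21, 27 and 27, with a log2 change of -0.70 (SE 0.233, limma adjusted p = 0.0141). It missed the threshold when GFP guide replicate 3 (limma adjusted p = 0.262, log2 change -0.50) or Actg1 guide replicate 1 (0.0671) was left out. The region in Cdx1 (chr18:61021036-61021180) had 20, 20 and 27 against 15, 14 and 16 and was not called (limma adjusted p = 0.104), and the one 23.4 kb into Pdgfrb (chr18:61068480-61068633) had 22 in each GFP guide library and 22 to 28 in the Actg1 guide libraries (limma adjusted p = 0.676). Pdgfrb held called regions of both directions within its own body.

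Pdgfra, a receptor that binds the A chain and marks many tissue fibroblasts, was not called at any of its 3 assigned regions. These all lay inside the gene, between 1.22 and 3.95 kb after the TSS. The strongest (chr5:75155740-75156748) had 322, 335 and 294 with the GFP guide and 353, 345 and 347 with the Actg1 guide. All Actg1 guide libraries were above all GFP guide libraries, but the log2 change of 0.16 (SE 0.0751) did not pass (limma adjusted p = 0.0757). It did pass after cyclic loess scaling (log2 change 0.19, limma adjusted p = 0.038) and after scaling to equal summed signal (0.19, limma adjusted p = 0.0435). The middle region (chr5:75154822-75155190) had 80, 93 and 78 against 94, 74 and 107, and the region nearest to the TSS (chr5:75153444-75153582) 25, 16 and 29 against 18, 19 and 23. In both the groups overlapped (limma adjusted p = 0.468 and 0.437). Of the regions assigned to no gene, 0 lay within 50 kb of these.

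Thy1 had 1 assigned region, 3.37 kb before its TSS (chr9:44039751-44040276), which was not called. It had 241, 256 and 252 with the GFP guide and 235, 243 and 257 with the Actg1 guide, or 250 ± 2.47 (SD, n = 2) and 245 ± 11.1 (SD, n = 3). The libraries of the groups were interleaved, with a log2 change of -0.03 (SE 0.0849, limma adjusted p = 0.799). Of the 9 unassigned regions around Thy1, 6 were called, 4 higher and 2 lower (66.7%), where 43.9% of all tested regions assigned to no gene were called.

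The 4 rises at Thy1 lay on both sides of the gene. Farthest upstream, 17.6 kb before the TSS (chr9:44025694-44025898), the signal went from 12, 7 and 12 to 40, 45 and 39. This was the largest rise of the 37 regions, from 10.8 ± 1.77 (SD, n = 2) to 41.3 ± 3.21 (SD, n = 3), a log2 change of 1.86 (SE 0.256, limma adjusted p = 1.36e-07). GFP guide replicate 2, at 7, was below the signal of 10 needed in 3 libraries. The region thus entered the test through the group where it was high. With no filter it was still called (limma adjusted p = 2.26e-07). At 13.2 kb before the TSS (chr9:44029769-44030554) it went from 40, 32 and 35 to 65, 89 and 59, a log2 change of 0.96 (SE 0.181, limma adjusted p = 3.60e-05). Past the gene, at 10.8 kb after the TSS (chr9:44054072-44054326), 20, 18 and 12 became 40, 55 and 39 (log2 change 1.48, SE 0.245, limma adjusted p = 4.04e-06). At 15.4 kb (chr9:44058681-44058938) 40, 37 and 48 became 69, 73 and 65 (log2 change 0.67, SE 0.169, limma adjusted p = 1.37e-03). That region lay 8.21 kb from the neighbouring gene Usp2, nearer to it than to Thy1. In each of the 4 the groups were apart, and each was called in all 15 alternatives. At a minimum signal of 20, the regions at 17.6 kb before and 10.8 kb after the TSS passed because of their Actg1 guide libraries. Of the 40147 tested regions assigned to no gene, 10707 had groups apart with the Actg1 guide higher and 10587 with it lower.

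The 2 falls at Thy1 lay downstream. Just past the end of the gene, 0.3 kb from it (chr9:44048678-44049082), the signal was 77, 108 and 93 with the GFP guide and 54, 73 and 55 with the Actg1 guide, a log2 change of -0.62 (SE 0.156, limma adjusted p = 1.33e-03). The call was lost without GFP guide replicate 3, at a log2 change of -0.61 (limma adjusted p = 0.0726). The other fall was in Usp2, the gene of a ubiquitin-specific protease next to Thy1 (chr9:44079065-44079600), and it was the region of highest mean signal among the 9. There 158, 206 and 171 became 131, 137 and 131, with a log2 change of -0.41 (SE 0.106, limma adjusted p = 1.96e-03), called in all 15 alternatives. The other 3 regions, all in Usp2, had log2 changes of -0.53, -0.14 and -0.05 and overlapping libraries (limma adjusted p = 0.174, 0.628 and 0.901).

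**Figure D2:**
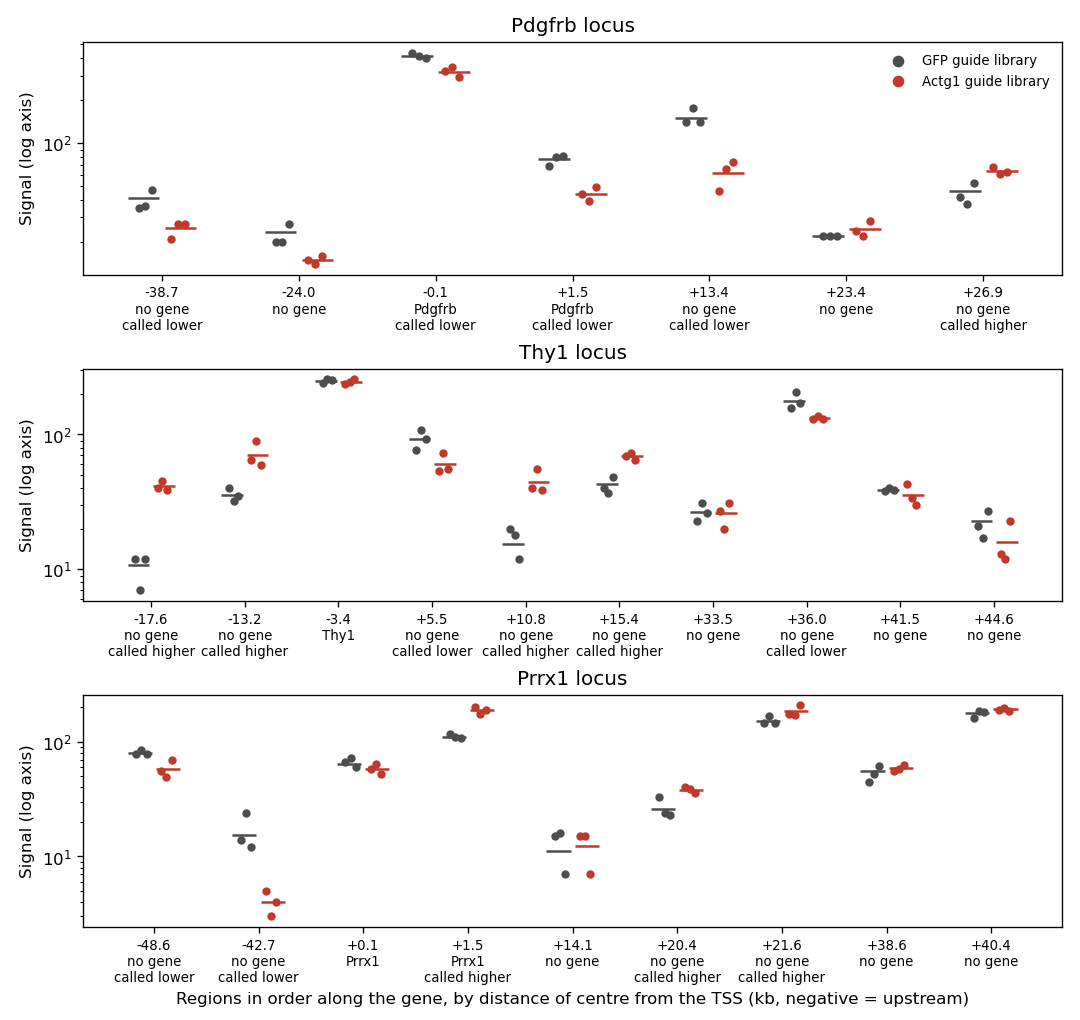
Signal (log axis) of each selected region at Pdgfrb, Thy1 and Prrx1, in order of distance from the TSS in kb. Dots are libraries, lines are group means, and called regions are marked. Unassigned regions are drawn only within 50 kb of an assigned region. By the RefSeq outline of the gene, 12 unassigned regions lay within 50 kb of Prrx1 and 7 within 50 kb of Pdgfrb, so some are not drawn. Pdgfrb falls at its promoter and at +13.4 kb but rises at +26.9 kb, Thy1 is not called at its assigned region and has rises on both sides, and Prrx1 rises at +1.5 kb but not at its promoter.

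The Twist1 promoter fell, by a small amount. It was the strongest of the 37 regions by mean signal (chr12:33956956-33958320, which holds the Twist1 sequence above). Its signal was 657, 663 and 656 with the GFP guide and 567, 514 and 601 with the Actg1 guide. Every Actg1 guide library was below every GFP guide library, at means of 658 ± 2.83 (SD, n = 2) and 561 ± 43.8 (SD, n = 3), a log2 change of -0.23 (SE 0.0607, limma adjusted p = 1.78e-03). The value stayed at -0.24 without GFP guide replicate 3 but missed the threshold (limma adjusted p = 0.0847), as it did without the mean-variance trend (limma adjusted p = 0.168). A weak region 0.872 kb into the gene (chr12:33958470-33958615) had 11, 10 and 12 against 19, 16 and 16. Here the Actg1 guide libraries were the higher ones, with a log2 change of 0.55 (SE 0.333) that did not pass (limma adjusted p = 0.185), although it passed without the mean-variance trend (limma adjusted p = 0.0287). No unassigned region lay within 50 kb.

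Twist2, the close relative of Twist1, was not called at any of its 3 selected regions. Its promoter (chr1:91800820-91802154) had 202, 187 and 208 with the GFP guide and 222, 231 and 208 with the Actg1 guide. One library of each group shared the value 208, and the log2 change was 0.13 (SE 0.0916, limma adjusted p = 0.267). The strongest region at this gene was not the promoter but one assigned to no gene and lying 15.3 kb into the gene (chr1:91816407-91817099), with 454, 473 and 446 against 454, 487 and 432. At 65.6 and 66.0 units of signal per 100 bp in the GFP and Actg1 guides it was the most accessible of the 37 regions, and its log2 change was 0.01 (SE 0.0661, limma adjusted p = 0.94). A weak region 46.2 kb upstream (chr1:91755235-91755374) had 16, 17 and 15 against 10, 7 and 10, with a log2 change of -0.76 (SE 0.381) that did not pass (limma adjusted p = 0.108), although it passed without the mean-variance trend (limma adjusted p = 0.03). The difference between Twist1 and Twist2 in their response was not tested.

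At Prrx1 the region inside the gene rose while the promoter was not called. The rise was 1.48 kb after the TSS (chr1:163311799-163312660). It had 116, 111 and 108 with the GFP guide and 203, 176 and 191 with the Actg1 guide, so that the lowest Actg1 guide library was well above the highest GFP guide library. The means were 111 ± 3.89 (SD, n = 2) and 190 ± 13.5 (SD, n = 3), a log2 change of 0.77 (SE 0.107, limma adjusted p = 1.44e-07), called in all 15 alternatives. The promoter region (chr1:163313385-163313786), which covers part of the Prrx1 sequence above, had 66, 72 and 60 against 58, 64 and 52. Those values overlapped, with a log2 change of -0.15 (SE 0.165, limma adjusted p = 0.488).

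The unassigned regions selected at Prrx1 moved in both directions, with 2 called higher and 2 lower of 7 (57.1%), against the 43.9% of all tested regions assigned to no gene. Both rises were in the gene body. At 21.6 kb after the TSS (chr1:163291871-163292407) 145, 168 and 146 became 176, 172 and 208, a log2 change of 0.29 (SE 0.104, limma adjusted p = 0.0237). At 20.4 kb (chr1:163293221-163293409) 33, 24 and 23 became 40, 39 and 36, a log2 change of 0.56 (SE 0.22, limma adjusted p = 0.0368). The first was called in 11 of 15 alternatives and the second in 10 of 15. Leaving out GFP guide replicate 3 gave limma adjusted p values of 0.254 and 0.261. The first was also lost when GFP guide replicate 1 or Actg1 guide replicate 3 was left out (limma adjusted p = 0.0816 and 0.131) and without the trend (0.145), and the second without GFP guide replicate 2, Actg1 guide replicate 1 or Actg1 guide replicate 2 (0.103, 0.094 and 0.0702) and after cyclic loess scaling (0.0647).

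Both falls at Prrx1 lay upstream of the gene, nearer to Gorab by the RefSeq table than to Prrx1 or to any other protein-coding gene. At 42.7 kb before the TSS (chr1:163356273-163356537) the signal went from 14, 24 and 12 to 5, 3 and 4. This was the largest fall of the 37 regions, a log2 change of -1.71 (SE 0.49, limma adjusted p = 4.38e-03). It was also the region of lowest mean signal, so it rests on few reads per library. Only its GFP guide libraries reached the signal needed to be tested, so it entered the test through the group where it was high. With no filter it was still called (limma adjusted p = 3.57e-03). At 48.6 kb (chr1:163362076-163362584) 78, 85 and 78 became 56, 49 and 69, a log2 change of -0.47 (SE 0.163, limma adjusted p = 0.0187). It was lost without GFP guide replicate 3, Actg1 guide replicate 1 or Actg1 guide replicate 2 (limma adjusted p = 0.144, 0.0711 and 0.0938) and without the trend (0.089). The region of highest mean signal among the 7, 40.4 kb into the gene (chr1:163273191-163273508), had 160, 185 and 181 against 189, 199 and 187 and was not called (limma adjusted p = 0.353). The remaining 2, at 38.6 and 14.1 kb into the gene, had overlapping libraries and log2 changes of 0.10 and 0.14 (limma adjusted p = 0.667 and 0.807).

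Meis2 was not called at any of its 3 selected regions. The promoter region (chr2:116065533-116066391, centred 123 bp from the TSS) had 320, 320 and 362 with the GFP guide and 337, 329 and 330 with the Actg1 guide, and the Actg1 guide libraries fell within the range of the GFP guide. Its log2 change was -0.04 (SE 0.0752, limma adjusted p = 0.738). The second region (chr2:116066744-116067476), upstream of the start in the deposited table but within Meis2 as RefSeq draws it, had 243, 255 and 255 against 278, 279 and 252 (log2 change 0.10, SE 0.0833, limma adjusted p = 0.377). A distal region 35.5 kb upstream (chr2:116101252-116101477) had 22 to 29 and 26 to 31 in the groups (limma adjusted p = 0.804). For Tcf21 (chr10:22817263-22820143) and Meis1 (chr11:18880428-19019651), 0 of the regions used here overlapped the gene or the 50 kb on either side of it, so their accessibility was not analysed here.

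Where a gene had at least 2 assigned regions, the ratio of the strongest to the second strongest was taken within each library, a comparison chosen after the values had been seen. At Prrx1 the region at 1.48 kb was 1.76, 1.54 and 1.80 times the promoter in the GFP guide libraries and 3.50, 2.75 and 3.67 times in the Actg1 guide libraries. At Twist1 the promoter was 59.7, 66.3 and 54.7 times the weak inner region with the GFP guide and 29.8, 32.1 and 37.6 times with the Actg1 guide. In both the groups were apart, and the exact two-sided permutation p was 0.1, the smallest that 2 against 3 samples allow, or 0.25 adjusted over the 5 genes compared. At Pdgfrb the ratio of promoter to inner region was 4.93 to 6.28 and 5.98 to 8.79, which overlapped (exact permutation p = 0.2). Meis2 and Pdgfra had exact permutation p values of 0.3 and 1.

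**Figure D3:**
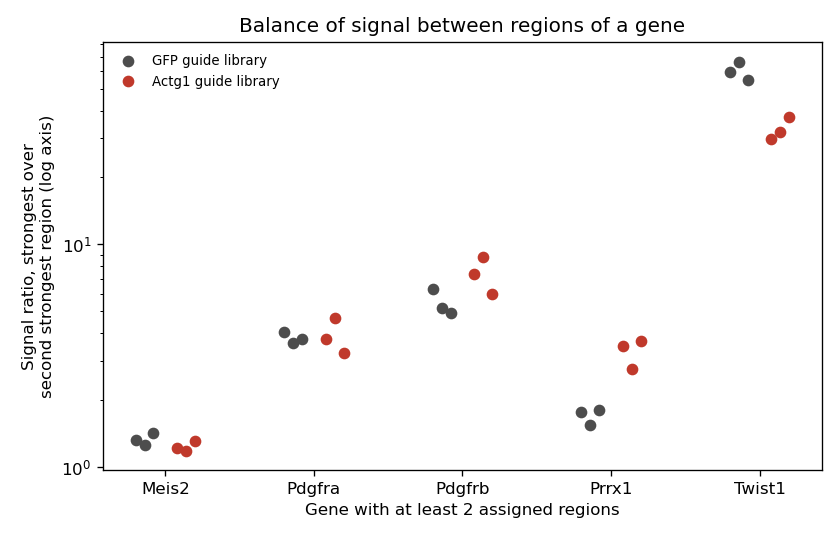
Ratio (log axis) of the signal of the strongest to the second strongest assigned region in each library, for the 5 genes with at least 2 assigned regions; dots are libraries. The 3 Actg1 guide libraries lie above the GFP guide libraries at Prrx1 and below them at Twist1, and the groups overlap at Meis2, Pdgfra and Pdgfrb.

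Over the 24 unassigned regions, 7 were called higher and 6 lower, or 54.2%, where 43.9% of all tested regions assigned to no gene were called. The fit without GFP guide replicate 3 cannot show whether these calls rest on that library, as given above. The log2 changes of the 24 unassigned regions ran from -1.71 to 1.86 with a median of 0.05. Their median size regardless of sign was 0.51, against 0.39 for all tested regions assigned to no gene. The assigned regions had a median size of 0.16, against 0.20 for all tested regions assigned to a gene. Signal went with this: the median signal was 211 in the assigned and 35.2 in the unassigned regions, and its part in the difference was not tested.

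**Figure D4:**
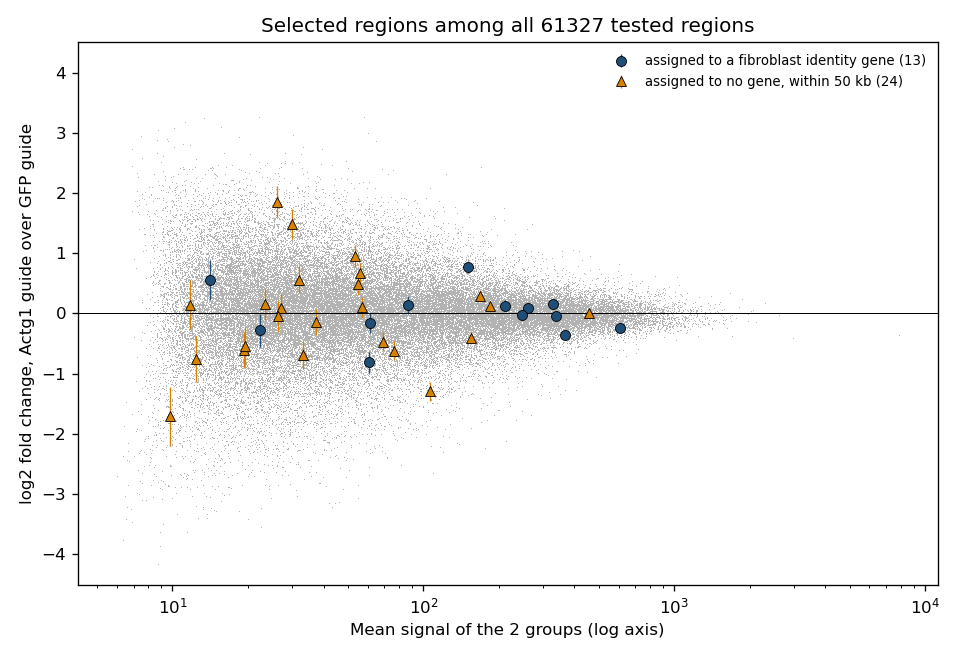
Log2 change of the Actg1 guide against the GFP guide against mean signal (log axis) for all 61327 tested regions (grey), with the 13 assigned regions as circles and the 24 unassigned regions as triangles; bars are 1 SE. The assigned regions with a mean signal over 200 lie between -0.36 and 0.16, and the widest changes are at unassigned regions of low signal.

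The genes that act with these receptors and factors were followed through lists of promoter regions, among which 32.7% of all tested promoters were called and the median log2 change was -0.02. Of the PDGF pathway, 14 of 18 genes had a tested promoter region, and 4 rose and 6 fell (71.4% called, median -0.12). The median signal of this list was 478, against 245 for all tested promoters, and the part of signal in the share called was not tested. The growth factor gene Pdgfd fell from 65, 59 and 78 to 40, 42 and 52 (log2 change -0.64, limma adjusted p = 3.64e-03). The adaptor gene Grb2, which links activated receptors to Ras, rose from 318, 326 and 319 to 410, 427 and 420 (log2 change 0.39, limma adjusted p = 1.78e-05). Plcg1, a phospholipase recruited by the receptors, fell from 558, 532 and 532 to 422, 448 and 413 (log2 change -0.33, limma adjusted p = 4.70e-05). All 3 had groups that were apart. Without GFP guide replicate 3 the list had 2 higher and 2 lower, and Pdgfd missed the threshold (limma adjusted p = 0.178). Without the mean-variance trend the list had 1 higher and 1 lower. Calls over all regions also fell in that fit, from 12642 higher and 12681 lower to 9221 and 8120.

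A list of 16 genes held TWIST partners and antagonists together with repressors of epithelial genes such as Zeb1. From it, 13 promoter regions of 11 genes were tested, and 3 rose and 3 fell (46.2% called, median -0.08). Zeb1, a repressor of epithelial genes, had 191, 226 and 193 against 236, 251 and 255 (log2 change 0.30, limma adjusted p = 5.61e-03). Tcf12, an E protein that pairs with Twist proteins, had 311, 276 and 276 against 383, 316 and 344 (log2 change 0.28, limma adjusted p = 3.77e-03). The promoter of Id4, whose product keeps E proteins from binding DNA, fell from 345, 312 and 331 to 302, 261 and 265 (log2 change -0.26, limma adjusted p = 8.46e-03). These 3 calls were lost without GFP guide replicate 3 (limma adjusted p = 0.127, 0.159 and 0.129), which left the list with 0 higher and 1 lower. Tcf12 was also lost without Actg1 guide replicate 1 (0.0611) and Id4 without Actg1 guide replicate 2 (0.0503). Without the mean-variance trend 0 regions of the list were called, in a fit that called 9221 regions higher and 8120 lower over the genome. The share of all promoters called in that fit was not computed.

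The surface markers of fibroblasts had 6 tested promoter regions from 12 genes, of which 0 rose and 2 fell (33.3% called, median -0.10). Itgb1, the integrin beta-1 chain, fell from 569, 553 and 549 to 466, 435 and 448 (log2 change -0.30, limma adjusted p = 1.21e-04). Cd44, the hyaluronan receptor, fell from 598, 584 and 588 to 462, 458 and 536 (log2 change -0.28, limma adjusted p = 4.41e-04). Cd44 missed the threshold without GFP guide replicate 3 (limma adjusted p = 0.0606), and both did without the mean-variance trend (0.121 for Cd44 and 0.0637 for Itgb1).

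Other transcription factors of mesenchyme had 22 tested promoter regions from 19 of 28 genes, of which 4 rose and 4 fell (36.4% called, median 0.06). Runx2, the master factor of bone-forming cells, had the widest change: 132, 117 and 132 became 52, 69 and 60, a log2 change of -1.08 (SE 0.146, limma adjusted p = 8.09e-08), called in all 15 alternatives. Foxf1, a forkhead factor of visceral mesenchyme, had 43, 51 and 52 against 38, 30 and 21 (log2 change -0.76, limma adjusted p = 5.67e-03). Klf4, a zinc finger factor, had 22, 14 and 22 against 31, 39 and 27 at a weak region (log2 change 0.66, limma adjusted p = 0.0305). Without GFP guide replicate 3 the list had 0 higher and 1 lower, and Foxf1 and Klf4 were lost (limma adjusted p = 0.172 and 0.092), as they were without the mean-variance trend (0.0777 and 0.0517). Foxf1 was also lost without Actg1 guide replicate 3 (0.0505), and Klf4 without GFP guide replicate 2 (0.0935), Actg1 guide replicate 1 (0.0699) or Actg1 guide replicate 2 (0.125).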

How the data were processed

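The authors deposited 1 table of 63430 regions with a signal value per region and library, taken here as normalized read counts in whole numbers (from the values: column totals of 7673745 to 7831438). Per the submitters' processing notes mm10 was used, with the tools STAR 2.7.10a, Trimmomatic 0.39, DESeq2 1.36.0, DESeq, featureCounts and Picard 3.0.0 in roles not stated. How peaks were called, the Tn5 offset treated and the values normalized is not given in the sources used here.

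For each library, what 1 read was worth was estimated from the uneven use of small whole numbers. Replicates were compared by a chi-square over regions with at least 40 reads in the pair. The rule for near-identical replicates set the averaging of GFP guide replicates 1 and 2. Regions that reached a signal of 10 in 3 or more of the 6 libraries were kept, and all 37 selected regions were among the 61327. They were fitted with limma 3.58.1 (R 4.3.3, mean-variance trend) on log2(signal + 1), with Benjamini-Hochberg adjustment over all of them and no covariate. The step was tried on simulated counts with sampling noise only and few or no changed regions. Those settings differ from these data, so no conclusion on these calls is drawn from that trial. Distances are from region centre to the edge of an assigned region, and the TSS is that of the deposited table.

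The genes, lists and tests were chosen with earlier results of these data known. Every assigned region was named, every unassigned region called with at least a 1.5-fold change, the strongest unassigned region of each locus, and the 3 called promoters of largest change in each list; 1 list is not reported here. Further unassigned regions were named after their values were seen. Other columns with sample values numbered 0.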

Additional observations from a re-analysis of the deposited data

How the results depend on the processing

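The changes of regions and the counts of calls were recomputed under 15 alternatives. These were pseudocounts of 0.5 and 5, no filter, a minimum signal of 20, cyclic loess scaling and equal summed signal. The others were 6 separate libraries, the replicate block, no mean-variance trend, and each of 6 libraries left out. Ratios within genes, marker values, levels per 100 bp and the shares called among assigned, unassigned and promoter regions were computed once. Of the 4 assigned regions called, 2 were called in every alternative, and of the 13 unassigned regions called, 7 were, 1 of which had no value at a minimum signal of 20. The count of assigned regions called higher went from 1 to 2 with cyclic loess, equal summed signal and no trend, and that called lower from 3 to 1 with no trend and to between 2 and 3 when a library was left out. Unassigned regions called lower numbered 3 to 6 and those called higher 5 to 6 when a library was left out, with the 3 coming without GFP guide replicate 3. Over all regions, leaving out a library gave 7381 to 12490 higher and 5412 to 12216 lower, against 12642 and 12681, and no trend gave 9221 and 8120.

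The direction changed only at regions that were not called. The Meis2 promoter ran from -0.0466 to 0.0529 when a library was left out, the distal Meis2 region from -0.003 to 0.189, the Usp2 region 33.5 kb from the Thy1 TSS from -0.181 to 0.123, the Prrx1 region at 14.1 kb from -0.378 to 0.478, and the strongest Twist2 region from -0.0379 to 0.0484. With 6 separate libraries, with or without the replicate block, the Prrx1 region was at -0.0292 and the Twist2 region at -0.0013. Whether same-numbered libraries of the groups shared more than the number is not stated. Their deviations correlated at 0.0138 to 0.0252, each the highest for its number, where other pairs gave -0.0165 to -0.0003. These values were small, and the main fit held no term for the replicate number. With the block, 14322 regions were higher and 14403 lower, against 14071 and 14105 without it, and no call of the 37 regions changed. With 1 GFP guide sample left, the fit without GFP guide replicate 3 assumes that it varies like the Actg1 guide libraries.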
